A study of Mus musculus with 2 samples.

Results

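The 48 genes described here are listed as chromatin modifiers besides the HDAC3 complex. Some of them encode enzymes that act mainly in the cytoplasm or in mitochondria. All were read in optic nerve of mice at postnatal day 12. They were taken by symbol as a fixed list, and all 48 were found among the 23950 symbols of the deposited tables, each with 1 entry. The list was set in 7 classes, which are other histone deacetylases and sirtuins, acetyltransferases, Sin3 and NuRD, CoREST, SWI/SNF and Chd remodellers, Polycomb, and DNA methylation. The control library came from Hdac3 f/+; Olig1-cre mice and the Hdac3 cKO library from Hdac3 f/f; Olig1-cre mice, with 1 library per group and a mixed strain background in both. Both groups thus carry the Cre recombinase, driven from Olig1, and a floxed Hdac3 allele. Olig1 is expressed in the oligodendrocyte lineage, and the whole nerve also holds cells in which this Cre need not be active. How many animals went into a library is not named in the labels.

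Histone deacetylases remove acetyl groups from lysines and acetyltransferases add them. The class I enzymes HDAC1 and HDAC2 have no DNA-binding part of their own and work inside the Sin3, NuRD and CoREST complexes, while SWI/SNF and Chd proteins move nucleosomes with energy from ATP. Polycomb complexes methylate histone H3 to keep genes silent, DNMT enzymes methylate DNA, and TET enzymes start the removal of that mark. In oligodendrocytes, class I deacetylases, BRG1 and CHD7 are known to take part in differentiation, and the sirtuin SIRT2 is known as an abundant protein of myelin.

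Levels are the deposited FPKM, which are scaled by transcript length, so that genes can be set beside each other. The interval after a value is the one deposited with it, which does not hold variation between animals. Of the 48 genes, 13 have a value outside its own interval in at least 1 library, 5 in control and 13 in cKO. A log2 difference is log2 of cKO FPKM plus 1 minus log2 of control FPKM plus 1, without further scaling, and its median over the 14154 genes tested was 0.12. A gene was called lower or higher when it differed by at least 2-fold on this scale and the deposited intervals did not overlap. Each group has 1 library, so replicate spread could not be measured, no p-value was computed, and the values describe these libraries and not the genotypes. The deposited FPKM summed to 441867 in control and 557861 in cKO, and read depth is unknown. Hdac3 itself was at 36.4 FPKM in control against 38.0 in cKO (log2 difference 0.06), a value for the whole gene that leaves the genotype labels unchecked.

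Of the 48 genes, 3 were called lower in the cKO library, where 4.51% of all genes tested were. These were Sirt2, Hdac11 and Rcor2. The count called higher was 0, where 4.73% of all genes tested were. Another 45 genes met neither rule. Differences of less than 1.5-fold on the same scale were seen for 40 of the 48 genes (83.3%), against 73.3% of all genes tested. The median log2 difference of the 48 genes was 0.05, with a middle 50% of -0.19 to 0.18, and 27 differences were above 0. Equal upper quartiles or a median set to 0 left 19 of them above 0, and equal sums of FPKM left 6, so that count turns with the scaling. Over all genes tested the middle 50% was -0.17 to 0.43. Deposited intervals did not overlap for 30 of the 48 genes (62.5%), close to the 60.9% of all genes tested, so that separate intervals alone set few genes apart.

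The sequences before the start sites of the 3 genes called lower are shown because these genes are the members that differ most. RefSeq promoter entries (GRCm38.p6) matched 41 of the 48 genes. The 250 bases before the start were searched on either strand for CAGNTG, an E-box form bound by bHLH factors such as those of the Olig family, and for ACAANG, a core form of Sox sites. Capitals mark a match. The Sirt2 window lies at chr7:28766502-28766751, the Hdac11 window at chr6:91156565-91156814 and the Rcor2 window at chr19:7267144-7267393, all on the plus strand.
Sirt2: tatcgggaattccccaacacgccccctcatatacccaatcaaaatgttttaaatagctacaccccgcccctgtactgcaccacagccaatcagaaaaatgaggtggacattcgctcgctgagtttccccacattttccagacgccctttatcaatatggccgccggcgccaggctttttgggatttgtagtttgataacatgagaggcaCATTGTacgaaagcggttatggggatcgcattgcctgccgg
Hdac11: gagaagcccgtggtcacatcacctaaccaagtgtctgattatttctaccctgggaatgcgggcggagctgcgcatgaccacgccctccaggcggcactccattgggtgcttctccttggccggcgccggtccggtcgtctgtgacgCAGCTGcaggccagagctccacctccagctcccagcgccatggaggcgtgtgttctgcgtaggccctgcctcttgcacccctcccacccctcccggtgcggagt
Rcor2: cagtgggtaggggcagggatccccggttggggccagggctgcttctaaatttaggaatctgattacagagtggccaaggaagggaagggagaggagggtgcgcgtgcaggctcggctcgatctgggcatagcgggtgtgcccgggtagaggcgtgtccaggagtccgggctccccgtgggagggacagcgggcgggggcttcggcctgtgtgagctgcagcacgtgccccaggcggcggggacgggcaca

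Sirt2 has 1 match to ACAANG, read on the minus strand, Hdac11 has 1 match to CAGNTG, and Rcor2 has none of either. CAGNTG occurs in 44.5% of 27025 promoters of the same length, in 38.2% of those of genes tested and in 12 of the 41 matched genes (29.3%). ACAANG occurs in 36.6%, in 28.8% and in 14 of 41 (34.1%). The matched genes had a median of 17 CpG per window, against 6 over all promoters and 16 over genes tested. Sirt2 holds 13 CpG in its window, and Hdac11 and Rcor2 hold 17 each. Such matches are descriptions of these windows and show no binding.

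**Figure D1:**
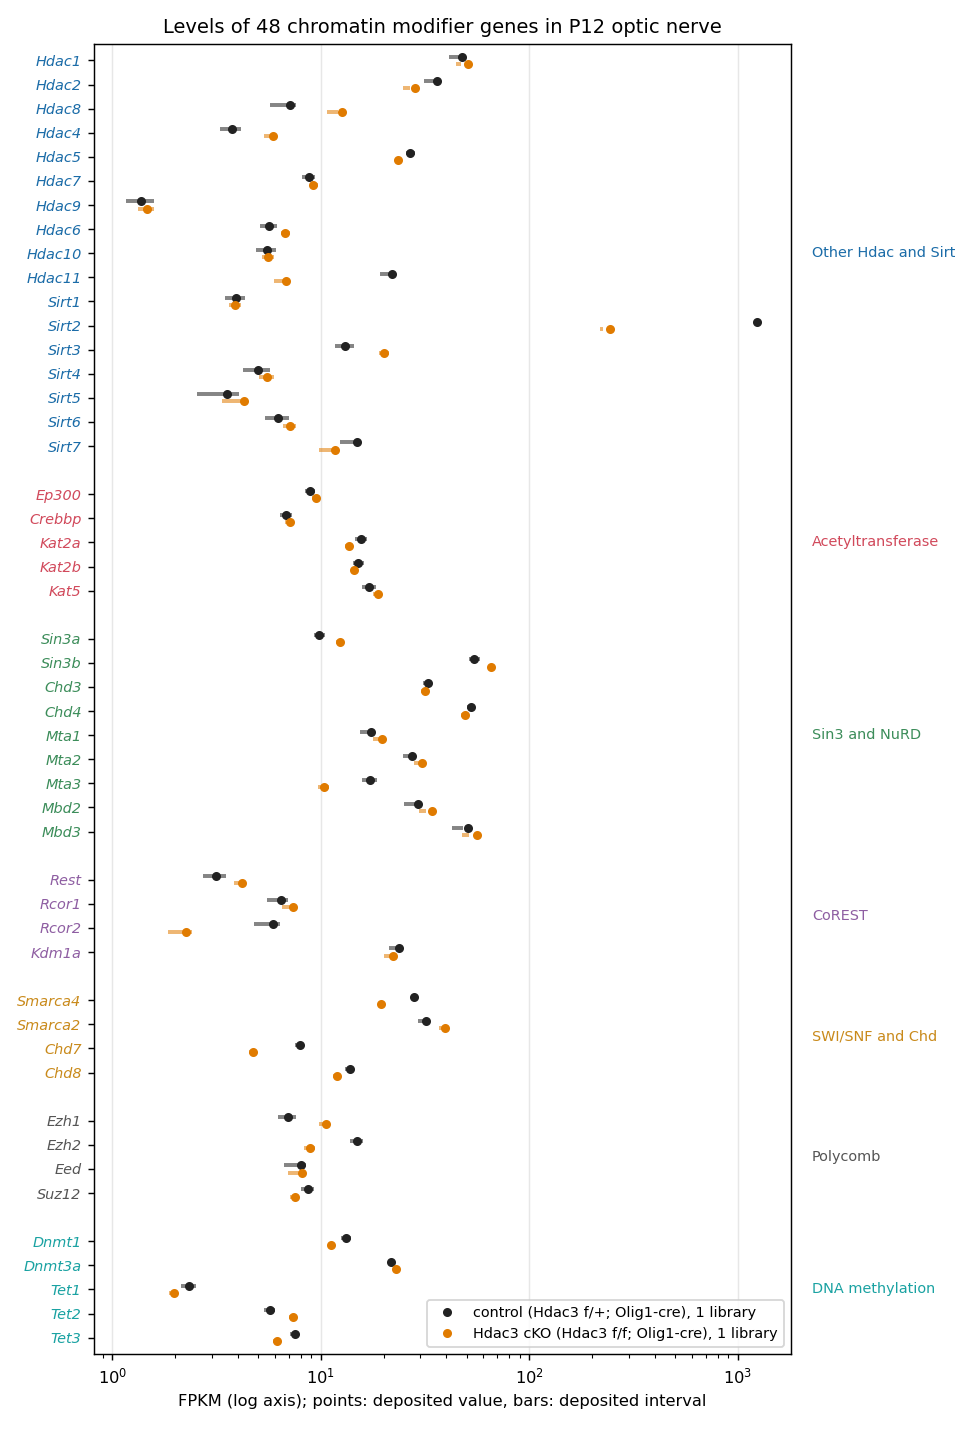
FPKM of the 48 genes (log axis) in the control library (black) and the Hdac3 cKO library (orange), grouped by class, with points for deposited values and bars for deposited intervals. Sirt2 lies far to the right of all others, at 1232 FPKM in control against 243 in cKO, while most other pairs of points lie close together.

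Sirt2 was the highest of the 48 genes in both libraries and the one with the largest difference. SIRT2 is a deacetylase that uses NAD, acts mainly in the cytoplasm and takes tubulin as a substrate. Sirt2 (chromosome 7, 29551771 to 29573684, mm9) was at 1232 FPKM in control, with an interval of 1237 to 1266, and at 243 FPKM in cKO, with an interval of 218 to 224. The control value thus lies below its interval and the cKO value above it. Control FPKM was 5.06 times the cKO FPKM, and the log2 difference was -2.34. Among all genes tested, Sirt2 ranked 26 by FPKM in control against 274 in cKO. It made up 96.4% of the summed FPKM of the 7 sirtuin genes in control and 82.3% in cKO. Of the summed FPKM of all 48 genes it made up 61.4% and 24.0%. Without Sirt2 the other 47 genes summed to 776 FPKM in control against 771 in cKO. In these unscaled values the difference in the summed level of the list is thus that of Sirt2. With equal sums of FPKM, only 6 of the 48 differences were above 0. The locus overlaps a further entry, Gm19897, at 16.9 and 2.26 FPKM, and the labels do not say whether the counting used strand.

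The other 6 sirtuin genes were at 3.53 to 14.9 FPKM in control and 3.86 to 20.1 in cKO, and none was called. Sirt3, a deacetylase of mitochondria, was at 13.1 FPKM in control (interval 11.7 to 14.4) and 20.1 in cKO (19.0 to 21.2), a log2 difference of 0.59. Its intervals do not overlap, though its locus overlaps Ric8, which was at 19.5 FPKM in each library. Sirt7, an enzyme of the nucleolus, was at 14.9 FPKM in control against 11.7 in cKO (log2 difference -0.33), again with separate intervals. The intervals of Sirt1, a nuclear enzyme, of Sirt4 and Sirt5, enzymes of mitochondria, and of Sirt6, an enzyme bound to chromatin, overlapped between libraries. Their log2 differences were -0.02 for Sirt1, 0.12 for Sirt4, 0.22 for Sirt5 and 0.16 for Sirt6.

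Hdac11, the sole class IV deacetylase gene, was the other deacetylase called lower. HDAC11 is known to remove long acyl chains from lysines. Hdac11 (chromosome 6, 91106809 to 91124677, mm9) was at 21.9 FPKM in control, with an interval of 19.3 to 22.4, and at 6.77 FPKM in cKO, with an interval of 5.95 to 6.91. Control FPKM was 3.24 times the cKO FPKM, and the log2 difference was -1.56. In control it came after Hdac1, Hdac2 and Hdac5 in the order of the 10 Hdac genes. In cKO, Hdac8 and Hdac7 also lay above it, and Hdac6, at 6.76 FPKM, was level with it within the intervals. Its share of the summed FPKM of the 10 genes was 13.3% in control and 4.50% in cKO.

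Hdac1 and Hdac2, which encode the catalytic subunits of the Sin3, NuRD and CoREST complexes, led the Hdac genes in both libraries. Hdac1 was at 47.5 FPKM in control against 50.6 in cKO, with overlapping intervals. Hdac2 was at 36.1 FPKM in control (interval 31.2 to 35.3) and 28.3 in cKO (24.8 to 26.8), a log2 difference of -0.34 with separate intervals. The ratio of Hdac1 to Hdac2, which does not depend on how the libraries are scaled, was 1.32 in control and 1.79 in cKO. The interval bounds give ratios of 1.17 to 1.47 in control and 1.66 to 1.90 in cKO, ranges that do not overlap but rest on intervals that exclude all 4 values. Hdac8, the class I enzyme that works outside these complexes and acts on cohesin, was at 7.10 FPKM in control (5.67 to 7.56) and 12.6 in cKO (10.7 to 12.1). Its log2 difference of 0.75 was the highest of the 48 genes and fell short of 2-fold, and its cKO value lies above its own interval.

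Class IIa deacetylases move between nucleus and cytoplasm and bind MEF2 transcription factors. None of the 4 genes passed 1.5-fold on the scale with 1 FPKM added, though Hdac4 was at 1.56 times its control FPKM without it. Hdac5, the most abundant, was at 26.8 FPKM in control against 23.3 in cKO (log2 difference -0.19), and Hdac4 was at 3.76 and 5.87 (log2 difference 0.53), both with separate intervals. Hdac7, at 8.74 and 9.19 FPKM, and Hdac9, the least abundant of the 48 genes at 1.37 and 1.46, had overlapping intervals. The Hdac7 locus overlaps Slc48a1, which was at 78.8 FPKM in control against 43.6 in cKO. The class IIb genes were Hdac6, for a tubulin deacetylase, at 5.62 and 6.76 FPKM (log2 difference 0.23), and Hdac10, for a polyamine deacetylase, at 5.50 and 5.60 (log2 difference 0.02).

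**Figure D2:**
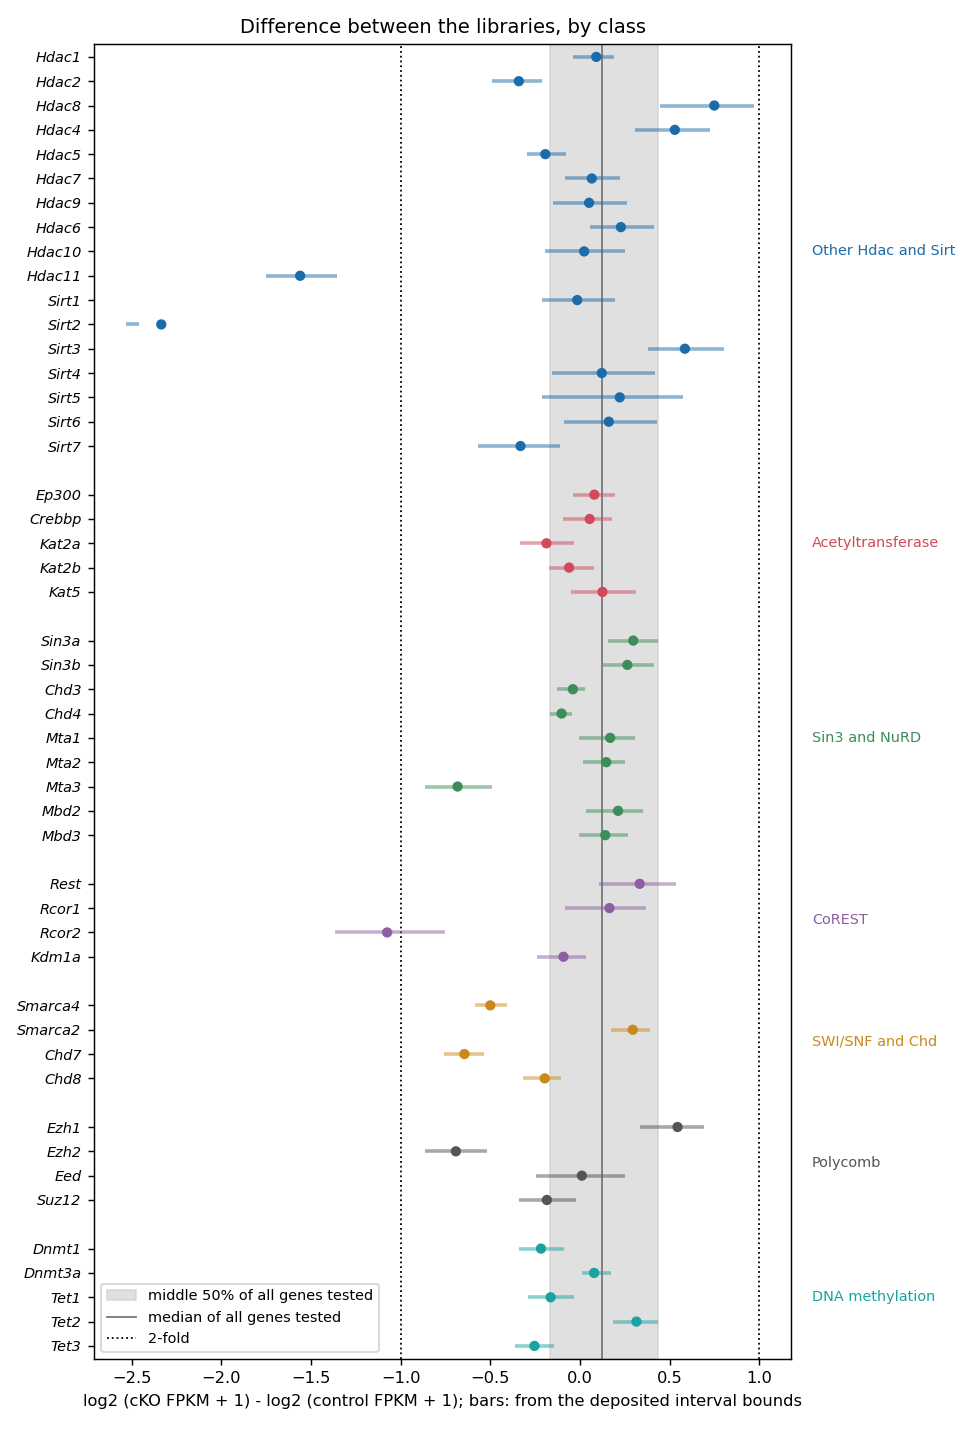
Log2 difference between the cKO and control libraries for each gene, coloured by class, with bars from the deposited interval bounds, a grey band for the middle 50% of all genes tested and dotted lines at 2-fold. Sirt2 (-2.34), Hdac11 (-1.56) and Rcor2 (-1.08) lie beyond the lower dotted line, and no gene lies beyond the upper one. The Sirt2 point lies outside its bar because both of its values lie outside their intervals.

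Of the 7 classes, the 5 acetyltransferase genes had the smallest median size of difference (0.08 on the log2 scale), and they ranged from -0.19 to 0.13 with a median of 0.05. Ep300, for the p300 acetyltransferase named in the study's question, was at 8.92 FPKM in control (8.40 to 9.37) and 9.48 in cKO (9.08 to 9.74). Its close relative Crebbp was at 6.83 and 7.13 FPKM, and both had overlapping intervals. The ratio of Ep300 to Crebbp was 1.31 in control and 1.33 in cKO. Kat2a and Kat2b encode paralogs that serve in the SAGA and ATAC coactivator complexes. Kat2a was at 15.6 FPKM in control against 13.6 in cKO (log2 difference -0.19), while Kat2b was at 15.1 and 14.5. Of the 5 acetyltransferase genes only Kat2a had separate intervals, where 60.9% of all genes tested did. Kat5, for the TIP60 acetyltransferase, was at 17.1 and 18.7 FPKM (log2 difference 0.13).

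Of the 9 Sin3 and NuRD genes, 0 were called, where 4.51% of all genes tested were lower and 4.73% higher. At these shares a count of 0 among 9 genes does not set the class apart. The median log2 difference of the 9 genes was 0.15, near the 0.12 of all genes tested. The scaffold gene Sin3b was the second highest of the 48 genes, at 54.4 FPKM in control against 65.5 in cKO (log2 difference 0.26), and Sin3a was at 9.83 and 12.3 (log2 difference 0.30). After scaling to the same sum, Sin3b was at -0.09 and Sin3a at -0.03. The NuRD remodeller genes were Chd4, at 52.7 and 49.0 FPKM (log2 difference -0.10), and Chd3, at 32.5 and 31.6 (log2 difference -0.04). Mbd3 was at 50.5 and 55.8 FPKM and Mbd2, whose product binds methylated DNA, at 29.3 and 34.1, with all 4 values above their intervals. The log2 difference of Mbd3 was 0.14, and -0.21 after scaling to the same sum. That of Mbd2 was 0.21, and -0.13 after this scaling. Within each of these 3 pairs the ratio between the genes was alike in the libraries, at 5.53 and 5.32 for Sin3b to Sin3a, 1.62 and 1.55 for Chd4 to Chd3, and 1.72 and 1.64 for Mbd3 to Mbd2.

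The Mta scaffold genes of NuRD were the exception within this class. Mta3 was at 17.1 FPKM in control (15.8 to 18.5) and 10.3 in cKO (9.70 to 10.9), a log2 difference of -0.68. Mta1, at 17.4 and 19.7 FPKM (log2 difference 0.17), and Mta2, at 27.4 and 30.5 (log2 difference 0.15), lay on the other side of 0, except after scaling to the same sum, where they were at -0.17 and -0.20. The ratio of Mta1 to Mta3 was 1.02 in control (0.832 to 1.13) and 1.91 in cKO (1.63 to 1.98), and that of Mta2 to Mta3 was 1.60 and 2.96.

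In the CoREST class, Rcor2 was called lower and the other 3 genes were not. Rcor1 and Rcor2 encode alternative scaffolds that join the H3K4 demethylase LSD1, from Kdm1a, to HDAC1 or HDAC2. Rcor2 (chromosome 19, 7344254 to 7349715, mm9) was at 5.86 FPKM in control, with an interval of 4.77 to 6.35, and at 2.26 FPKM in cKO, with an interval of 1.85 to 2.42. Control FPKM was 2.60 times the cKO FPKM, and the log2 difference was -1.08. It was -1.34 with a pseudocount of 0.1 and -0.58 with a pseudocount of 5, which no longer meets the rule. Rcor1 was at 6.44 and 7.34 FPKM (log2 difference 0.16). The ratio of Rcor2 to Rcor1 was 0.910 in control (0.685 to 1.16) and 0.307 in cKO (0.251 to 0.371), so that scaffold genes of like level in control differed in cKO. Kdm1a was at 23.6 and 22.1 FPKM (log2 difference -0.09), with overlapping intervals. Rest, for a repressor of neuronal genes that recruits CoREST, was at 3.13 and 4.20 FPKM (log2 difference 0.33).

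All 4 genes of the SWI/SNF and Chd class had separate intervals, where 60.9% of all genes tested did. Of these 4 genes, 3 lay on the lower side, and the median log2 difference of the class was -0.35. Smarca4 and Smarca2 encode BRG1 and BRM, alternative ATPases of SWI/SNF. Smarca4 was at 28.0 FPKM in control (27.1 to 29.2) and 19.5 in cKO (19.1 to 20.2), a log2 difference of -0.50. Smarca2 was at 31.8 FPKM (29.4 to 32.5) and 39.2 (36.8 to 38.8), a log2 difference of 0.29 that was -0.05 after scaling the libraries to the same sum. The ratio of Smarca4 to Smarca2 was 0.880 in control and 0.497 in cKO. Chd7, whose product works with SOX10 in mouse oligodendrocytes, was at 7.92 FPKM (7.52 to 8.31) and 4.71 (4.51 to 4.88), a log2 difference of -0.64. Its paralog Chd8 was at 13.8 and 11.9 FPKM (log2 difference -0.20).

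Among Polycomb genes the 2 methyltransferase paralogs differed in opposite directions. EZH2 is the form known from dividing cells and EZH1 the form that is kept in cells that no longer divide. Ezh2 was at 14.9 FPKM in control (13.8 to 16.0) and 8.83 in cKO (8.32 to 9.35), a log2 difference of -0.69. Ezh1 was at 6.97 FPKM (6.24 to 7.60) and 10.6 (9.84 to 10.7), a log2 difference of 0.54. Ezh2 was thus the higher of the pair in control and the lower in cKO, with a ratio of 2.14 (1.82 to 2.56) and 0.832 (0.777 to 0.951). Neither difference reached 2-fold in the main setting, though Ezh2 was at -1.01 after scaling to the same sum. The signs of both held in each of 3 scalings. Eed, at 8.04 and 8.10 FPKM, and Suz12, at 8.64 and 7.48 (log2 difference -0.18), encode the partners that both enzymes need. Of 6 markers of dividing cells, 5 were below 0 and 0 were called. Their median log2 difference was -0.14, and their FPKM summed to 58.1 in control and 50.8 in cKO. Mki67 was at 73.7% of control, the lowest of them, and Ezh2 at 59.3%. The part of dividing cells in the Ezh2 difference was not tested.

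The DNA methylation genes all had separate intervals, where 60.9% of all genes tested did. Their differences were small, from -0.25 to 0.31 on the log2 scale, with a median of -0.16. Dnmt3a, which encodes an enzyme that sets new methylation, was at 21.7 FPKM in control against 23.0 in cKO (log2 difference 0.08, with a sign that turned in each of 3 scalings, to -0.26 with equal sums). Dnmt1, for the enzyme that copies methylation after replication, was at 13.2 and 11.2 FPKM (log2 difference -0.22). Of the TET genes, Tet3 was the highest in control, at 7.53 FPKM (7.13 to 7.89), and was at 6.15 in cKO (5.91 to 6.36). Tet2 was at 5.70 FPKM (5.33 to 6.05) and 7.33 (7.02 to 7.56), so that it was the highest TET gene in cKO, and the ratio of Tet2 to Tet3 was 0.757 and 1.19. Tet1 was the lowest, at 2.33 and 1.97 FPKM.

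**Figure D3:**
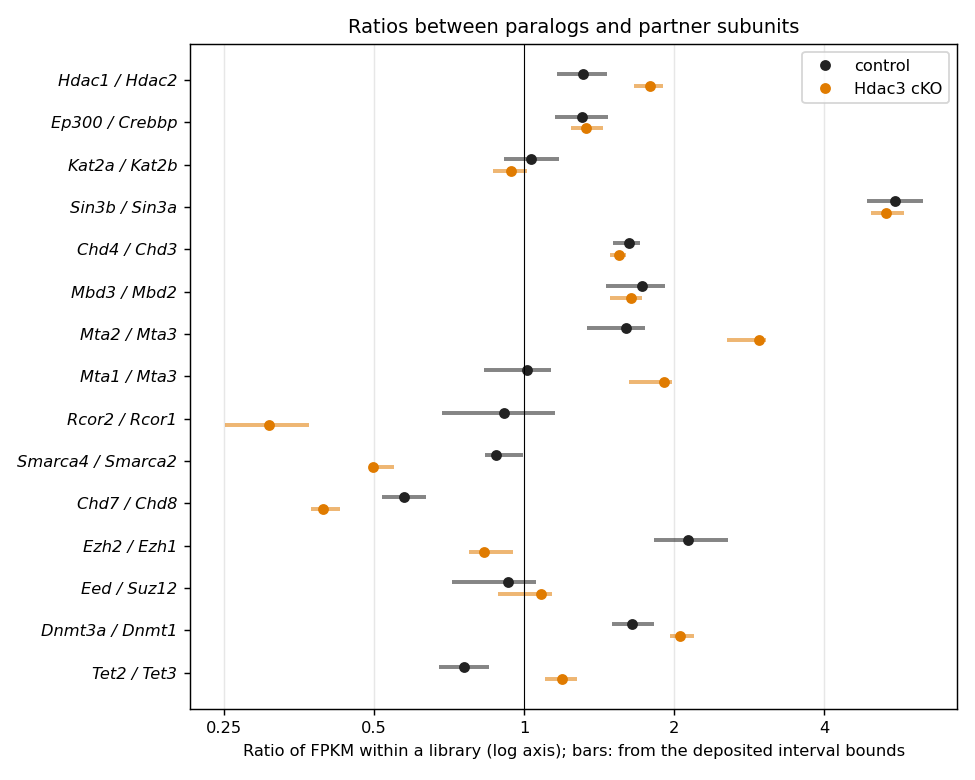
Ratios of FPKM within a library (log axis) for 15 pairs of paralogs or partner subunits, in control (black) and cKO (orange), with bars from the deposited interval bounds. The ranges of the libraries overlap for 6 pairs and are separate for 9. Among single genes tested, 60.9% had separate intervals, and the share for other pairs was not computed. The ranges of Rcor2 to Rcor1 (0.910 and 0.307) and Ezh2 to Ezh1 (2.14 and 0.832) lie farthest apart.

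With the lesser threshold of 1.5-fold and separate intervals, 6 of the 48 genes were lower, where 8.85% of all genes tested were, and 2 were higher, where 16.0% were. The 6 were Sirt2, Hdac11, Rcor2, Ezh2, Mta3 and Chd7, and the 2 were Hdac8 and Sirt3. Sirt3 lay just inside this threshold and Ezh1 and Hdac4 just outside it, an order set by the pseudocount of 1. As ratios of FPKM, cKO over control, Hdac4 was at 1.56, Sirt3 at 1.54 and Ezh1 at 1.52.

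**Figure D4:**
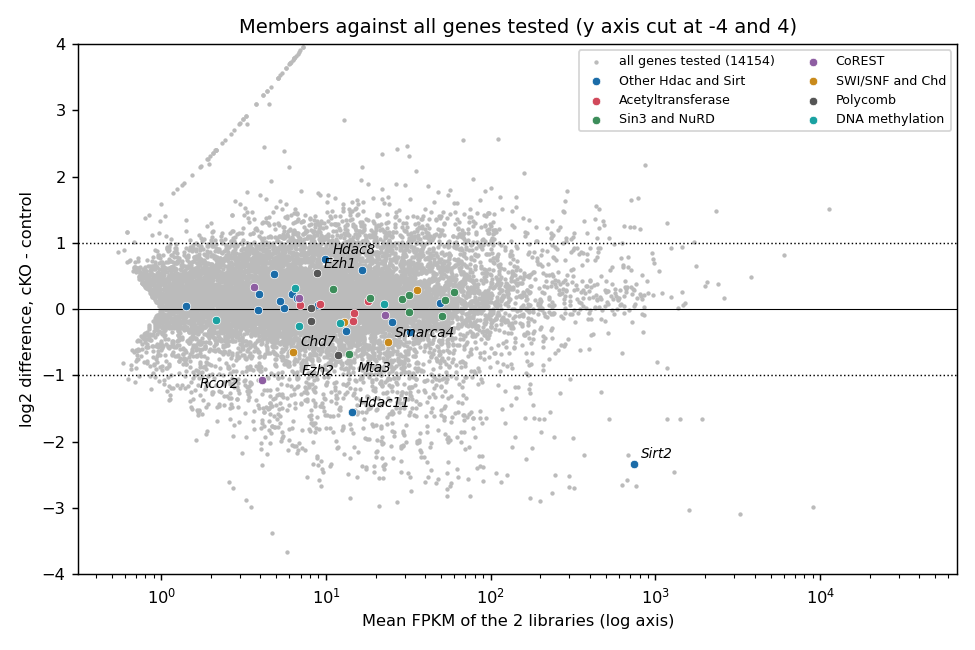
Log2 difference against the mean FPKM of the libraries (log axis) for all genes tested (grey) and the 48 genes (coloured by class), with dotted lines at 2-fold. The axis leaves out 132 genes beyond 4 on the log2 scale, and apart from Sirt2, Hdac11 and Rcor2 the 48 genes lie inside the 2-fold lines.

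Markers of oligodendrocytes differed in the same direction as Sirt2, Hdac11 and Rcor2. Of 10 such markers, 10 were called lower, and their summed FPKM was 12795 in control and 1910 in cKO, which is 14.9% of control. Single markers were at 11.7% to 21.7% of control, and none was listed at 0 in either library. Sirt2 stood at 19.7% of control, inside this range, while Hdac11 at 30.9% and Rcor2 at 38.5% stood above it. Chd7, Ezh2 and Mta3 stood at 59.3% to 60.1%. In whole nerve, fewer cells of a type and less RNA per cell cannot be told apart, and the part of this marker shift in the differences above was not tested. Of 6 precursor markers, 2 were called lower, Gpr17 and Neu4, and 4 were not, among them Cspg4 at 69.7% and Pdgfra at 110% of control. Their summed FPKM was 376 in control and 191 in cKO, with a median log2 difference of -0.23. Most of the difference in that sum is that of Gpr17, at 215 FPKM in control against 37.2 in cKO. Ptprz1 was at 109% and Matn4 at 99.9% of control. Of 10 astrocyte markers, 3 were called higher and 0 lower, with a summed FPKM of 1115 and 1918. Of 6 meningeal fibroblast markers, 5 were called higher, with a summed FPKM of 1528 and 3588. The summed FPKM of red blood cell markers was at 311% of control, and that of mural cell markers at 178%. Most of the mural sum is Vtn, at 160 FPKM in control against 312 in cKO. Microglia markers were at 162%, endothelium markers at 128% and neuron markers at 103% in sum. Of 8 microglia markers, 6 lay above 0 and 2 below. The neuron sum joins opposite differences, as 7 of 9 markers lay above 0 and 2 below. Nefl, at 254% of control, and Nefh, at 282%, were called higher, while Gap43 was at 51.7% and Tubb3 at 49.1%.

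**Figure D5:**
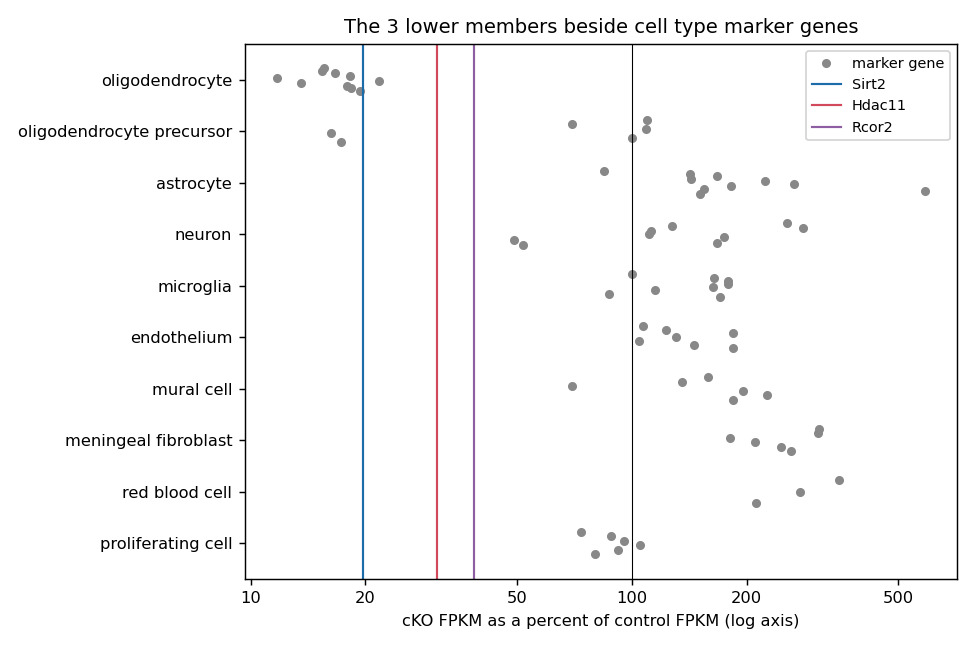
FPKM in cKO as a percent of control (log axis) for each marker gene of 10 cell types (grey points), with vertical lines for Sirt2 (19.7%), Hdac11 (30.9%) and Rcor2 (38.5%). The Sirt2 line crosses the group of oligodendrocyte markers, and the lines of Hdac11 and Rcor2 lie between that group and most other markers.

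Further subunits and partners of these complexes, with genes of NAD supply for the sirtuins, were read as 138 genes in 8 lists. Of 131 tested, 3 (2.29%) were called lower, where 4.51% of all genes tested were, and 0 were called higher, where 4.73% were. Their median log2 difference was 0.01. Bcl7a, a SWI/SNF subunit, was at 17.0 FPKM in control (15.5 to 17.5) and 6.13 in cKO (5.59 to 6.31), a log2 difference of -1.34. Ywhaq, a 14-3-3 protein of the family that holds class IIa deacetylases in the cytoplasm, was at 407 and 195 FPKM (log2 difference -1.06). Parp1, a nuclear enzyme that consumes NAD, was at 37.0 and 17.8 FPKM (log2 difference -1.02). These 3 genes were the ones past the rule. Beside shares of 4.51% and 4.73%, a count of 0 in a single list says little about that list.

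Of 29 tested genes among other SWI/SNF and Chd genes, Bcl7a was the only one called, and the median log2 difference was -0.05. Beside it, Smarcd1 was at 31.2 FPKM in control against 17.3 in cKO (log2 difference -0.82), while its paralog Smarcd2 was at 13.1 and 21.3 (log2 difference 0.66). These are alternative subunits of the same complex, and they lay on opposite sides of 0. Of 26 other Polycomb genes, 0 were called, with a median of -0.06. Phc1, a subunit of the complex that ubiquitinates histone H2A, was at 37.9 and 18.9 FPKM (log2 difference -0.97), and Phf1, a partner of EZH2, was at 5.96 and 10.9 (log2 difference 0.77).

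Of 17 other Sin3 and NuRD subunits, 0 were called, and the median log2 difference was 0.06. Rbbp7, a histone-binding subunit, was at 50.7 FPKM in control against 82.2 in cKO (log2 difference 0.69), and Arid4b, a Sin3 subunit, was at 11.1 and 6.85 (log2 difference -0.62). Of 8 other CoREST subunits and 22 other acetyltransferases and bromodomain readers, 0 were called and all lay within 1.5-fold on the scale with 1 FPKM added. Without it, Kdm1b, a demethylase gene named after its values were seen, was 1.59 times as high in control, at 4.97 FPKM against 3.14. Among the former, Zmym2 was at 8.79 FPKM in control against 7.33 in cKO (log2 difference -0.23). Among the latter, the largest differences were those of Ncoa1, a nuclear receptor coactivator, at 8.05 and 10.9 FPKM (log2 difference 0.39), and Ep400, a remodeller of the TIP60 complex, at 10.7 and 8.11 (log2 difference -0.36).

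Of 12 tested genes among other DNA methylation genes, 0 were called, with a median log2 difference of 0.19. The stress-induced genes Gadd45g, at 7.36 FPKM in control against 15.3 in cKO (log2 difference 0.97), and Gadd45b, at 7.84 and 15.5 (log2 difference 0.90), had the largest differences, past 2-fold for Gadd45g as a ratio of FPKM and short of it with 1 FPKM added. Of 9 tested class IIa partners, Ywhaq was the only one called, and Ywhah, another 14-3-3 gene, was at 74.9 and 113 FPKM (log2 difference 0.58). Of 8 tested genes of NAD supply, Parp1 was the only one called, with a median of 0.38. Naprt1, which makes NAD from nicotinic acid, was at 5.89 and 11.6 FPKM (log2 difference 0.87).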

How the data were processed

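RNA-seq of whole optic nerve was used, with 1 control and 1 Hdac3 cKO library. The authors deposited FPKM per gene with interval bounds and a status, per the file headers. Per the submitters' processing notes, the tools were CASAVA, TopHat and Cufflinks, with mm9 as the build. Their versions, the annotation, the strand setting and the read numbers are not given in the sources used. The tables list their 24460 entries in different orders and were joined by symbol, start site group and locus, keeping the entry with the highest summed FPKM per symbol. Genes with OK status in both libraries and 1 FPKM or more in either library were tested. Locus starts, counted from 0 in the files, are given from 1. The code for the calls was tested on simulated data, which says nothing of the spread between animals. Promoters are RefSeq, 1 window per gene at its most upstream start.

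All 48 members are accounted for. Those described at length are the ones differing by 1.5-fold or called, the 2 most abundant of each class, and their paralogs. Of each other list, the members called and the 2 with the largest difference at a mean FPKM of at least 5 are named, except for a gene that is not reported here. Members and lists were chosen with earlier results of these data known. Alternatives tried were pseudocounts of 0.1 and 5, no minimum FPKM or 5, scaling to the same upper quartile or sum, centring on the median, size alone, 1.5-fold, and summed entries. Python 3.11.15, pandas 2.3.3 and numpy 2.4.6 were used.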

Additional observations from a re-analysis of the deposited data

How the results depend on the processing

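Sirt2 and Hdac11 were called lower under the main setting and all 10 alternatives, with log2 differences from -2.69 to -2.32 and from -1.87 to -1.19. Rcor2 was called under all but the pseudocount of 5 (-0.58). Only the pseudocounts and scalings could change these calls. The changes of minimum FPKM, size alone, 1.5-fold and summed entries could not. Each of these genes has 1 entry, lies above 5 FPKM in control and already met the main rule. Scaling to the same sum gave a count called lower of 5, as Mta3 (-1.00) and Ezh2 (-1.01) were added, and the count was 6 with a 1.5-fold threshold, where the count called higher was 2. Under the other alternatives the count called lower was 2 or 3 and the count called higher was 0. The median of the SWI/SNF and Chd class minus that of all genes tested was -0.47, and it was -0.36 both with a pseudocount of 5 and with no minimum FPKM. For the DNA methylation class it was -0.28, and -0.15 with a pseudocount of 5. The other 67 class medians under alternatives stayed within the range of the interval bounds. Those under centring, size alone and 1.5-fold were fixed in advance, as these settings cannot change a class median minus that of all genes. Scaling moves the median of all genes from 0.12 to 0.04 (upper quartile) or -0.18 (sum). The sign of 21 of the 48 differences turned in at least 1 of 3 scalings, none of them a gene called. Of all genes called, 51.2% were higher in the main setting, 41.7% with upper quartile scaling, 36.6% with centring and 16.7% with scaling to the same sum. With a pseudocount of 5, 339 genes were lower and 282 higher, against 638 and 669. The 1.5-fold threshold gave 1253 lower and 2262 higher. The cause of these changes was not tested. No paired analysis was possible because each group has 1 library. Read depth is unknown, and no alternative replaces replicates.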
